A study of Mus musculus with 9 samples.

Results

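The 10 genes described here encode proteins of the intercalated disc, the contact between heart muscle cells. They are the gap junction genes Gja1, Gja5 and Gjc1, the disc membrane protein gene Tmem65, the adherens junction gene Cdh2, the desmosomal genes Dsg2, Dsp, Pkp2 and Jup, and the intermediate filament gene Des. They were selected by symbol, as genes of the disc, with earlier results of these data known. Each symbol matched 1 Ensembl gene, so the set is 10 of the 43629 genes counted, and all 10 were among the 16561 genes that passed the filter on low counts. The source was embryonic day 13.5 ventricle of the outbred CD-1 mouse, pooled by litter. Cells that did not attach quickly to an uncoated surface were cultured for 48 h, transfected, and harvested 72 h after transfection by magnetic sorting for the surface protein VCAM1. One group received a pool of 4 siRNAs against Dnmt3a (DNMT3a siRNA), another a pool of 4 against Dnmt3b (DNMT3b siRNA), and the third an AllStars negative control siRNA (negative siRNA), each at 0.012 pmol. Each group has 3 libraries, numbered 1 to 3 in the labels. Whether these are separate cultures or litters is not in the labels, and the spread that p-values measure, the one between libraries, may thus be technical. They give no other treatment or genotype. The study asked which genes differ in expression after knockdown of either DNA methyltransferase.

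The intercalated disc joins cardiomyocytes end to end. Gap junctions, built of connexins, pass current and small molecules between cells. Adherens junctions couple the actin of neighbouring sarcomeres through N-cadherin, and desmosomes couple desmin filaments through desmosomal cadherins, plakoglobin, plakophilin and desmoplakin. In the embryonic heart these proteins are spread along the cell borders and gather at the cell ends only as the heart matures. DNMT3A and DNMT3B are the enzymes that place new methyl groups on cytosines of DNA.

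The targeted transcripts were lower in their own groups. Dnmt3a had 40.3, 52.9 and 46.3 CPM with DNMT3a siRNA, against 232, 270 and 275 CPM with negative siRNA (log2 fold change -2.48 ± 0.11, SE; adjusted p = 3.42e-06). Dnmt3b had 1.17, 2.43 and 1.51 CPM with DNMT3b siRNA, against 4.32, 4.26 and 4.33 CPM with negative siRNA (-1.34 ± 0.23; adjusted p = 0.00816). CPM here are counts divided by library size, in units of 1e6 counts, with library sizes scaled by TMM, and adjusted p are from edgeR's quasi-likelihood test with Benjamini-Hochberg adjustment over all 16561 genes. Between 27852412 and 35896018 counts fell in genes per library. In a principal component analysis, negative siRNA 2 and DNMT3a siRNA 2 lay at 10.7 and 11.6 on the first component, apart from the other libraries of their groups (-35.3 and -30.9 with negative siRNA, -28.5 and -17.5 with DNMT3a siRNA). Results that move without 1 of these libraries are given both ways below. The labelled cell type was present by its markers, beside a larger sum of fibroblast markers. The 12 cardiomyocyte markers summed to 4974 to 5641 CPM with DNMT3a siRNA, 5783 to 7001 CPM with DNMT3b siRNA and 2140 to 2640 CPM with negative siRNA, whereas the 10 fibroblast markers summed to 61083 to 67887, 57026 to 63554 and 63220 to 80273 CPM in the same groups. In bulk RNA, fewer cells of a type and less RNA per cell cannot be told apart.

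Per length, Des was the most abundant of the 10 transcripts and Gja5 the least abundant in each group. With DNMT3a siRNA the order by mean was Des (125 ± 41.4 CPM per kb of exon; SD, n = 3, as for the other means in this paragraph), Cdh2 (61.8), Jup (49.9), Gja1 (30.9), Dsp (26.0), Pkp2 (25.0), Tmem65 (18.9), Gjc1 (9.44), Dsg2 (3.17) and Gja5 (0.166). Libraries overlapped there between Gja1 and Dsp and between Dsp and Pkp2. With DNMT3b siRNA the order was Des (199 ± 30.6), Cdh2 (47.8), Jup (44.5), Dsp (26.0), Pkp2 (24.3), Gja1 (19.2), Gjc1 (11.0), Tmem65 (9.93), Dsg2 (3.17) and Gja5 (0.432), with overlap between Cdh2 and Jup and between Dsp and Pkp2. With negative siRNA it was Des (73.9 ± 34.7), Jup (52.3), Cdh2 (41.5), Gja1 (20.6), Pkp2 (17.0), Tmem65 (14.5), Dsp (13.4), Gjc1 (8.13), Dsg2 (1.24) and Gja5 (0.197). In that group Des overlapped Jup, Jup overlapped Cdh2, and neighbours overlapped from Gja1 through Pkp2 and Tmem65 to Dsp. Gja1, Gjc1 and Gja5, the 3 connexins, kept that order among themselves in each of the 3 groups.

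**Figure D1:**
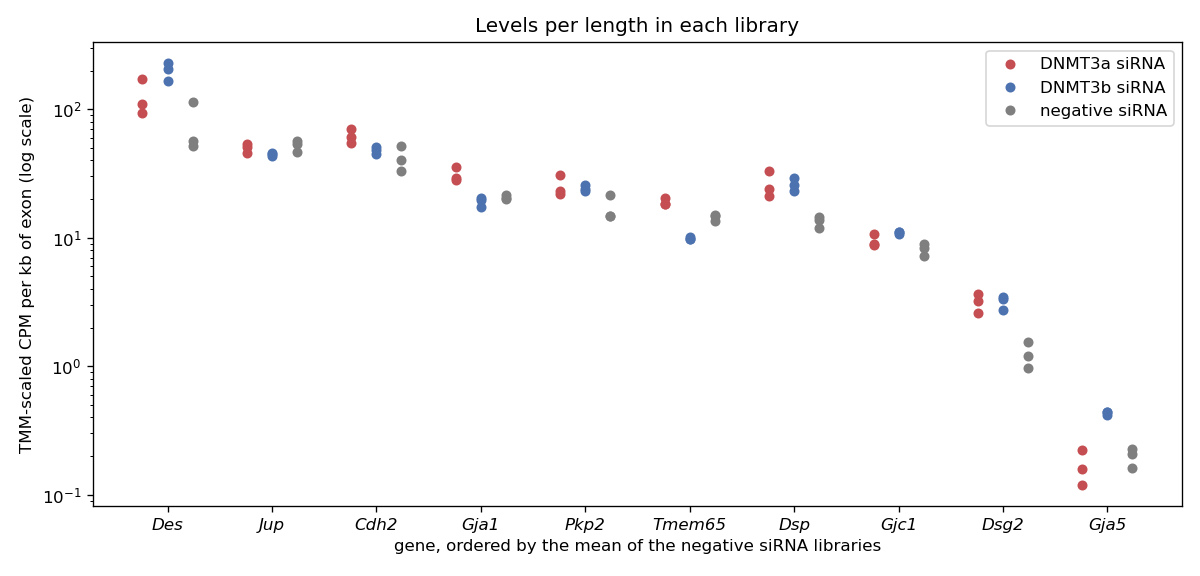
TMM-scaled CPM per kb of exon (log scale) of the 10 genes in each of the 9 libraries, with DNMT3a siRNA, DNMT3b siRNA and negative siRNA side by side for each gene. Genes run from Des (mean 73.9 with negative siRNA) down to Gja5 (mean 0.197), and each dot is 1 library.

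Because the silenced enzymes act on CpG sites, promoter sequences are shown for a connexin that was higher with DNMT3a siRNA (Gja1), a connexin that was higher with DNMT3b siRNA (Gja5), a desmosomal gene that was higher with both (Dsp) and one that passed the test with neither (Jup). Each runs 5′ to 3′ on the gene's strand from 250 bases before to 50 bases after the RefSeq start on GRCm38.p6, in lower case with CpG sites in capitals.
Gja1, chr10:56377050-56377349, plus strand: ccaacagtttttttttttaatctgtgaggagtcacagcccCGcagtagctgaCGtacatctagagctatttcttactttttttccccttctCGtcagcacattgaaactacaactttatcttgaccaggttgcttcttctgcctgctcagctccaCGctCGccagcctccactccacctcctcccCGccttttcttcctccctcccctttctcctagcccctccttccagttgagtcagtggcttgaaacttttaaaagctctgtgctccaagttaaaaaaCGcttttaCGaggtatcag
Gja5, chr3:97032152-97032451, plus strand: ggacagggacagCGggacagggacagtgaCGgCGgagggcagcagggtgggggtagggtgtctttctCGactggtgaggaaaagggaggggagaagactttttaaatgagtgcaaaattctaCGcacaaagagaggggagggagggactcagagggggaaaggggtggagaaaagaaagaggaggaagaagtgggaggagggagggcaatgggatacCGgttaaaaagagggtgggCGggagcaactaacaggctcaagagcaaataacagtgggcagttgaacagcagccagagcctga
Dsp, chr13:38151044-38151343, plus strand: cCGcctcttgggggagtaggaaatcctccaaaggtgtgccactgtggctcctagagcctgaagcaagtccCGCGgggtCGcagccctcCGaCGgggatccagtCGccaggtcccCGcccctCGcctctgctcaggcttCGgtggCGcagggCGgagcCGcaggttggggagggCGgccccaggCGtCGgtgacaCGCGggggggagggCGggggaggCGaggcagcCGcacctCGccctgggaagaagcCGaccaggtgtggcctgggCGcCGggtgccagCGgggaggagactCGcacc
Jup, chr11:100397741-100398040, minus strand: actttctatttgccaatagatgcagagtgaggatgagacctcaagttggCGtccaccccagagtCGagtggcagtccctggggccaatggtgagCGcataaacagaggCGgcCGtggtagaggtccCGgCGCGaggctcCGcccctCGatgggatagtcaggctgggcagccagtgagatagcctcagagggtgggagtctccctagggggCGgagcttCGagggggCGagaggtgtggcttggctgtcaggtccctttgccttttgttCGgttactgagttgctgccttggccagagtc
The window of Dsp held 27 CpG sites, more than 84.5% of the 32851 RefSeq promoter windows of the same length, in which the median was 7. Jup had 14 sites (more than 63.7% of windows), Des 11 (more than 58.6%), Gja1 8 (more than 51.4%) and Gja5 7 (more than 47.9%). The Gja5 window lies inside the annotated span of its gene. RefSeq windows matched 5 of the 10 genes. Gjc1, Cdh2, Pkp2, Dsg2 and Tmem65 are named only. Of motifs searched on both strands, GGGCGG, the GC box, stood 1 time in the Gja5 window, 4 times in Dsp and 2 times each in Jup and Des, and in 35.7% of all windows. AGGTGT, a core of T-box sites, stood 2 times in Dsp and 1 time in Jup (13.7% of all windows), AGATAA, a form of the GATA site, 1 time in Gja1 (11.2%), TGANTCA, the AP-1 site, 1 time in Gja1 (7.81%), and CCAAT 2 times in Jup (37.4%). TATAAA stood in none of these 5 windows and in 13.6% of all windows. DNA methylation at these windows was not analysed here.

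Of the 3 connexins, Gja1 rose with DNMT3a siRNA, and Gja5 and Gjc1 rose with DNMT3b siRNA. Gja1 encodes Cx43, the main connexin of working ventricular muscle; the gene lies at chr10:56377330-56402513 on the plus strand of GRCm38 (ENSMUSG00000050953). It had 290, 300 and 362 CPM with DNMT3a siRNA, 203, 177 and 210 CPM with DNMT3b siRNA, and 208, 205 and 221 CPM with negative siRNA. Every DNMT3a siRNA library was above all libraries of the other groups. Gja1 rose with DNMT3a siRNA, to 1.5 times its level with negative siRNA (log2 fold change 0.59 ± 0.10, SE; adjusted p = 0.00519). With DNMT3b siRNA its log2 fold change was -0.10 ± 0.10 (adjusted p = 0.607).

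Gja5 encodes Cx40, the connexin of atrial muscle and the fast conduction system, which trabecular ventricular muscle and arterial endothelium also make (chr3:96904693-97077416, plus strand, ENSMUSG00000057123). It was low everywhere, with 0.682, 0.909 and 1.28 CPM with DNMT3a siRNA, 2.52, 2.39 and 2.52 CPM with DNMT3b siRNA, and 0.920, 1.30 and 1.18 CPM with negative siRNA. These values rest on 21 to 39 counts per DNMT3a siRNA library, 72 to 82 per DNMT3b siRNA library and 32 to 40 per negative siRNA library. The DNMT3b siRNA libraries lay above all others, and those of the other groups overlapped. Gja5 rose with DNMT3b siRNA, to 2.19 times its level with negative siRNA (1.13 ± 0.26; adjusted p = 0.0273), and its log2 fold change with DNMT3a siRNA was -0.24 ± 0.27 (adjusted p = 0.646). The call with DNMT3b siRNA was lost without any 1 of DNMT3b siRNA 1 (adjusted p = 0.0591), 2 (0.0945) or 3 (0.118) or of negative siRNA 1 (0.105) or 3 (0.0825), within a range of 0.00456 to 0.118 over 18 alternatives, while the log2 fold change stayed between 0.99 and 1.26. Of its 5746 exon bases, 165 are shared with Gpr89 on the opposite strand. Gpr89 had 24.1 to 26.5 CPM with DNMT3a siRNA, 22.3 to 25.6 CPM with DNMT3b siRNA and 26.1 to 26.4 CPM with negative siRNA. The 10 endothelial markers summed to 149 to 188 CPM with DNMT3a siRNA, 219 to 242 CPM with DNMT3b siRNA and 149 to 202 CPM with negative siRNA, and their median log2 fold change with DNMT3b siRNA was 0.98, with 1 of 9 tested, Kdr, passing. Their mean log2 CPM was 2.51, 3.66 and 3.15 in the DNMT3a siRNA libraries, 3.98, 4.13 and 4.12 in the DNMT3b siRNA libraries, and 2.84, 3.79 and 3.02 in the negative siRNA libraries. By this mean DNMT3a siRNA 2 and negative siRNA 2 were the highest of their groups. Every DNMT3b siRNA library was above all other libraries, in the mean and in the sum. One endothelial marker had no count in a DNMT3a siRNA library. Their part in the Gja5 result was not tested.

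Gjc1 encodes Cx45, the connexin of the early heart tube and the nodes (chr11:102799579-102819700, minus strand, ENSMUSG00000034520). Its values were 44.3, 53.2 and 44.2 CPM with DNMT3a siRNA, 53.5, 55.6 and 55.7 CPM with DNMT3b siRNA, and 41.6, 44.5 and 36.0 CPM with negative siRNA. The DNMT3b siRNA libraries were above all negative siRNA libraries, and the DNMT3a siRNA libraries overlapped that range. Gjc1 rose with DNMT3b siRNA, to 1.35 times its level with negative siRNA (0.43 ± 0.10; adjusted p = 0.0324). With DNMT3a siRNA the log2 fold change was 0.21 ± 0.10 (adjusted p = 0.224). The call was lost without DNMT3b siRNA 1 (adjusted p = 0.0574), 2 (0.125) or 3 (0.149) or negative siRNA 1 (0.0766) or 3 (0.124), with log2 fold changes of 0.35 to 0.50 and adjusted p of 0.00532 to 0.149 over 18 alternatives.

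Tmem65, a membrane protein gene whose product lies at the disc, where it binds Cx43, and also in mitochondria, was the one gene of the 10 that passed the test with opposite signs under the 2 pools (chr15:58782269-58823638, minus strand, ENSMUSG00000062373). It had 115, 115 and 127 CPM with DNMT3a siRNA, 62.2, 61.6 and 64.1 CPM with DNMT3b siRNA, and 85.7, 93.1 and 95.5 CPM with negative siRNA. No library overlapped between any of the groups. Tmem65 rose with DNMT3a siRNA, to 1.30 times its level with negative siRNA (0.38 ± 0.08; adjusted p = 0.00997), and fell with DNMT3b siRNA, to 0.685 times that level (-0.55 ± 0.08; adjusted p = 0.00247). Both calls stood in all 18 alternatives. Per kb, the ratio of Gja1 to Tmem65 was 1.55, 1.61 and 1.75 with DNMT3a siRNA, 2.01, 1.77 and 2.02 with DNMT3b siRNA, and 1.49, 1.35 and 1.42 with negative siRNA. The ratio of Gja1 to Gjc1 was 3.19, 2.75 and 4.00 with DNMT3a siRNA, 1.85, 1.55 and 1.84 with DNMT3b siRNA, and 2.44, 2.24 and 3.00 with negative siRNA, so that its lowest values were those with DNMT3b siRNA. These ratios were chosen after the values were seen and are given without a test.

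**Figure D2:**
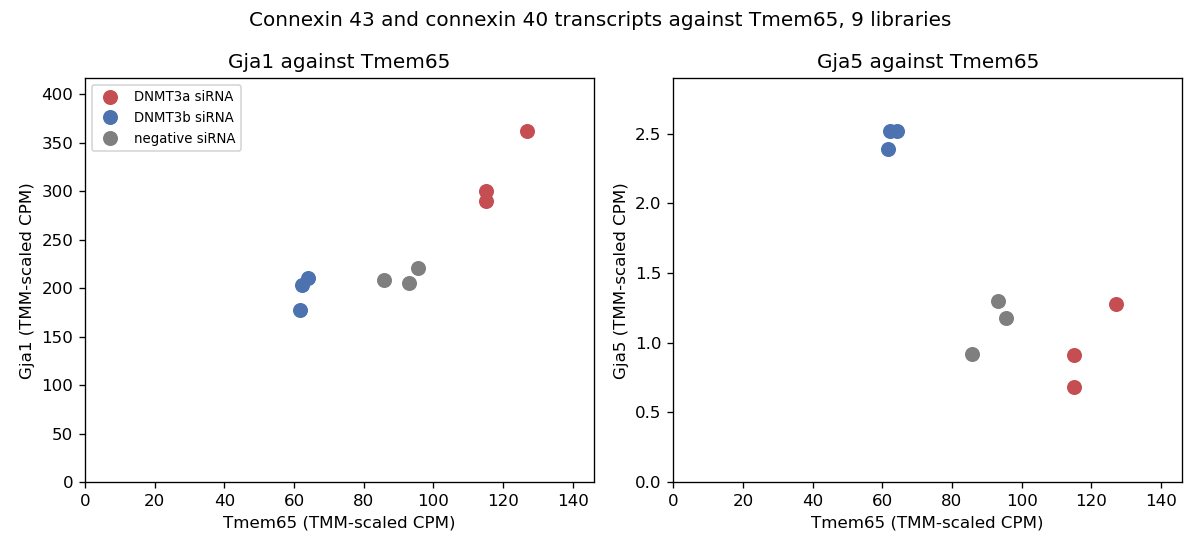
TMM-scaled CPM of Gja1 (left) and Gja5 (right) against TMM-scaled CPM of Tmem65, with 1 dot per library. The DNMT3a siRNA libraries lie at 115 to 127 CPM of Tmem65 with 290 to 362 CPM of Gja1, and the DNMT3b siRNA libraries at 61.6 to 64.1 CPM of Tmem65 with 2.39 to 2.52 CPM of Gja5, the highest Gja5 values.

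N-cadherin, the adhesion receptor of the cardiac adherens junction, is encoded by Cdh2 (chr18:16588877-16809246, minus strand, ENSMUSG00000024304). Cdh2 had 564, 494 and 439 CPM with DNMT3a siRNA, 407, 361 and 389 CPM with DNMT3b siRNA, and 415, 322 and 267 CPM with negative siRNA. All DNMT3a siRNA libraries were above all negative siRNA libraries, and the DNMT3b siRNA libraries lay within the negative siRNA range. Cdh2 rose with DNMT3a siRNA, to 1.49 times its level with negative siRNA (0.58 ± 0.15; adjusted p = 0.0356). With DNMT3b siRNA its log2 fold change was 0.20 ± 0.15 (adjusted p = 0.470). The call with DNMT3a siRNA was lost in 9 of 18 alternatives (adjusted p 0.00416 to 0.190, log2 fold change 0.44 to 0.76). Adjusted p was 0.128 without DNMT3a siRNA 1, 0.0775 without DNMT3a siRNA 2, 0.0524, 0.0574 and 0.0675 without DNMT3b siRNA 1, 2 and 3, 0.0746 without negative siRNA 2 and 0.101 without negative siRNA 3.

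The desmosomal cadherin Dsg2, the heart's desmoglein, had the largest log2 fold change of the genes that passed in each comparison with negative siRNA (chr18:20558074-20604521, plus strand, ENSMUSG00000044393). It had 26.8, 30.2 and 21.6 CPM with DNMT3a siRNA, 27.4, 22.5 and 28.8 CPM with DNMT3b siRNA, and 9.98, 12.8 and 8.03 CPM with negative siRNA. The libraries of both knockdown groups were above all negative siRNA libraries. Dsg2 rose to 2.55 times the negative siRNA level with DNMT3a siRNA (1.35 ± 0.18; adjusted p = 0.00141) and to 2.55 times that level with DNMT3b siRNA (1.35 ± 0.18; adjusted p = 0.00223).

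Dsp encodes desmoplakin, which ties desmin filaments to the desmosomal plaque (chr13:38151294-38198577, plus strand, ENSMUSG00000054889). It had 318, 203 and 233 CPM with DNMT3a siRNA, 279, 225 and 249 CPM with DNMT3b siRNA, and 134, 140 and 114 CPM with negative siRNA. Here too no knockdown library fell into the negative siRNA range. Dsp rose to 1.95 times the negative siRNA level with DNMT3a siRNA (0.96 ± 0.16; adjusted p = 0.00450) and to 1.94 times with DNMT3b siRNA (0.96 ± 0.16; adjusted p = 0.00664). The calls of Dsg2 and Dsp in both comparisons stood in all 18 alternatives.

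Plakophilin 2, encoded by Pkp2, is the armadillo protein of the cardiac desmosomal plaque (chr16:16213318-16272712, plus strand, ENSMUSG00000041957). Pkp2 had 116, 163 and 123 CPM with DNMT3a siRNA, 129, 124 and 137 CPM with DNMT3b siRNA, and 78.7, 115 and 79.1 CPM with negative siRNA. Negative siRNA 2 stood highest in its group, and both knockdown groups lay above it. Neither difference passed the threshold of 0.05: with DNMT3a siRNA Pkp2 had a log2 fold change of 0.56 ± 0.17 (adjusted p = 0.0613) and with DNMT3b siRNA one of 0.52 ± 0.17 (adjusted p = 0.103). With the replicate number as a block, since same-numbered libraries of these 2 groups deviated together, the log2 fold change with DNMT3a siRNA was 0.57 and passed (adjusted p = 0.0151). Without negative siRNA 2, Pkp2 passed with DNMT3a siRNA (0.77; adjusted p = 0.00538) and with DNMT3b siRNA (0.72; adjusted p = 0.00848). Over 18 alternatives, adjusted p ran from 0.00538 to 0.183 with DNMT3a siRNA and from 0.00219 to 0.326 with DNMT3b siRNA.

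Plakoglobin, encoded by Jup, sits in both desmosomes and adherens junctions (chr11:100368958-100397763, minus strand, ENSMUSG00000001552). Jup had 343, 295 and 326 CPM with DNMT3a siRNA, 278, 287 and 294 CPM with DNMT3b siRNA, and 345, 301 and 364 CPM with negative siRNA. The DNMT3a siRNA libraries overlapped those with negative siRNA, and the DNMT3b siRNA libraries were all below them. Neither difference passed (log2 fold change -0.07 ± 0.09, adjusted p = 0.721, with DNMT3a siRNA; -0.23 ± 0.09, adjusted p = 0.165, with DNMT3b siRNA), though Jup with DNMT3b siRNA reached -0.31 and adjusted p = 0.0497 without negative siRNA 2 (0.0497 to 0.410 over 18 alternatives). The ratio of Dsg2 to Jup per kb was 0.0608, 0.0795 and 0.0516 with DNMT3a siRNA, 0.0766, 0.0610 and 0.0762 with DNMT3b siRNA, and 0.0225, 0.0332 and 0.0172 with negative siRNA. The ratio of Dsp to Jup was 0.617, 0.459 and 0.477 with DNMT3a siRNA, 0.669, 0.523 and 0.564 with DNMT3b siRNA, and 0.258, 0.311 and 0.208 with negative siRNA. Both ratios, also chosen after the values were seen, were higher in every knockdown library than in any negative siRNA library.

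Desmin, encoded by Des, is the muscle intermediate filament that ends on desmosomes and Z-discs (chr1:75360329-75368579, plus strand, ENSMUSG00000026208). Des had 408, 644 and 351 CPM with DNMT3a siRNA, 624, 766 and 851 CPM with DNMT3b siRNA, and 194, 427 and 211 CPM with negative siRNA. The libraries numbered 2 were the highest of the DNMT3a siRNA and negative siRNA groups. The DNMT3b siRNA libraries were above all negative siRNA libraries, whereas the DNMT3a siRNA libraries overlapped them. Neither knockdown passed for Des, at a log2 fold change of 0.75 ± 0.34 (adjusted p = 0.222) with DNMT3a siRNA and of 1.43 ± 0.35 (adjusted p = 0.0561) with DNMT3b siRNA. Without negative siRNA 2, Des passed with DNMT3a siRNA (1.21; adjusted p = 0.0216) and with DNMT3b siRNA (1.88; adjusted p = 0.00446), and without DNMT3a siRNA 2 it passed with DNMT3b siRNA (adjusted p = 0.0454). Adjusted p over 18 alternatives ran from 0.0111 to 0.514 with DNMT3a siRNA and from 4.84e-04 to 0.197 with DNMT3b siRNA.

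**Figure D3:**
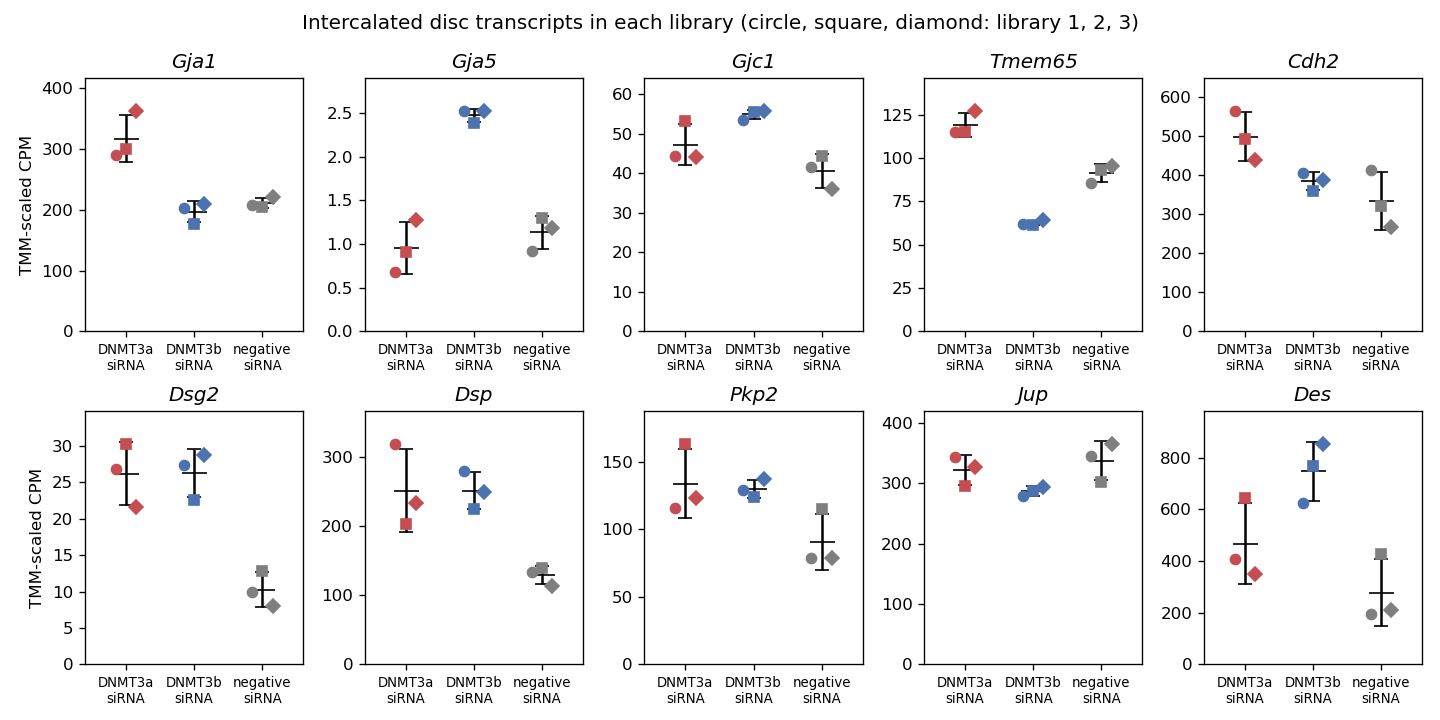
TMM-scaled CPM of each of the 10 genes in each library, with DNMT3a siRNA left, DNMT3b siRNA in the middle and negative siRNA right; circles, squares and diamonds are libraries 1, 2 and 3, and black marks are the mean ± SD (n = 3). Dsg2 and Dsp lie higher in both knockdown groups, Gja1 and Tmem65 are highest with DNMT3a siRNA, and Gja5 is highest with DNMT3b siRNA.

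Across the 10 genes, 5 rose with DNMT3a siRNA (Gja1, Tmem65, Cdh2, Dsg2 and Dsp) and the other 5 did not pass. Of all genes tested, 10.1% passed in that comparison, 4.87% upward and 5.22% downward. The median log2 fold change was 0.57 for the 10 genes and 0.02 for all genes tested. Scaled by library size alone, 61.1% of the genes that passed were higher with DNMT3a siRNA, against 48.3% with TMM, and the 10 genes' count stayed at 5. With DNMT3b siRNA, 4 of the 10 rose (Gja5, Gjc1, Dsg2 and Dsp), 1 fell (Tmem65) and 5 did not pass, where 5.64% of all genes tested passed, 3.52% upward and 2.12% downward. The median was 0.47 for the 10 genes and 0.00 for all genes. The count of 5 that passed with DNMT3b siRNA became 3 without any 1 of DNMT3b siRNA 1, 2 or 3 or of negative siRNA 1 or 3, and 8 without negative siRNA 2. The comparisons share the negative siRNA libraries, so the calls of Dsg2 and Dsp in both do not count as separate evidence.

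**Figure D4:**
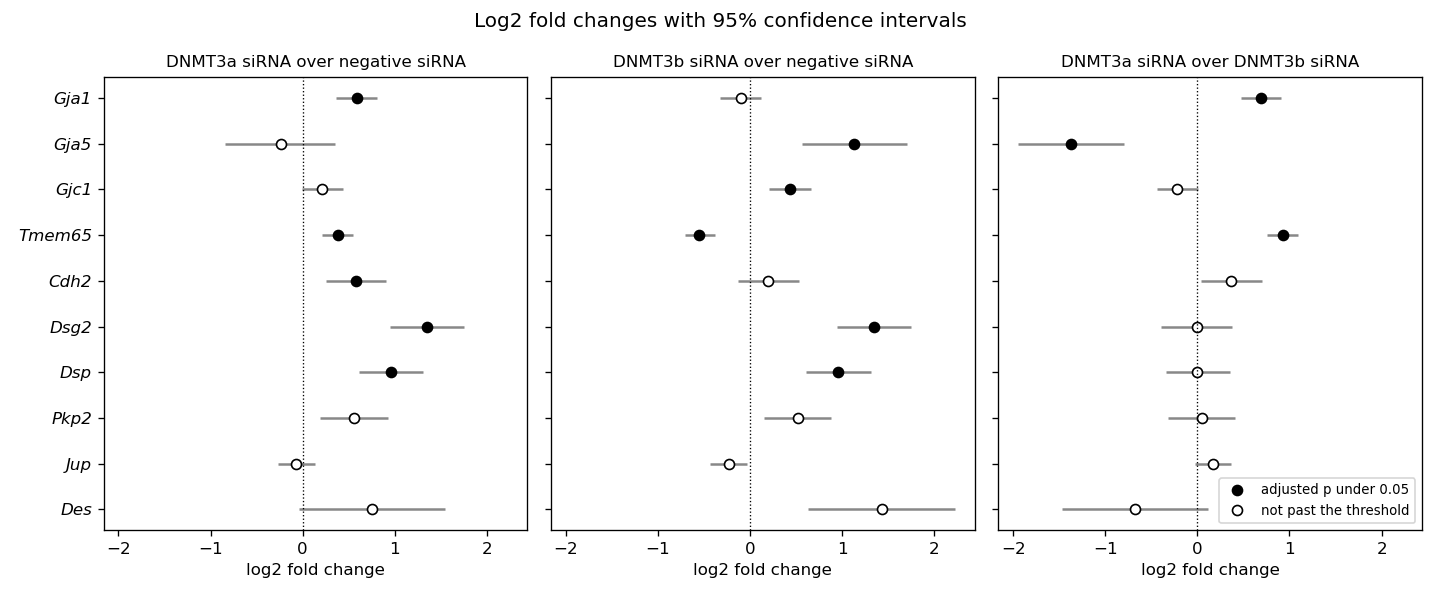
Log2 fold changes of the 10 genes with 95% confidence intervals for DNMT3a siRNA over negative siRNA (left), DNMT3b siRNA over negative siRNA (middle) and DNMT3a siRNA over DNMT3b siRNA (right); filled dots have an adjusted p under 0.05. In the right panel Gja1 (0.69) and Tmem65 (0.93) lie above 0, Gja5 (-1.37) lies below it, and Dsg2 and Dsp lie at 0.

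Set against each other, the 2 knockdown groups differed in 3 of the 10 genes, each a connexin or Tmem65. Tmem65 was 1.90 times as high with DNMT3a siRNA as with DNMT3b siRNA (log2 fold change 0.93 ± 0.08; adjusted p = 2.09e-04). Gja1 was also higher with DNMT3a siRNA (0.69 ± 0.10; adjusted p = 0.00309), and Gja5 was lower, by a factor of 2.59 (-1.37 ± 0.26; adjusted p = 0.0100). All 3 calls stood in the 18 alternatives. Among all genes tested 9.55% passed in this comparison, 4.47% upward and 5.08% downward. The third connexin, Gjc1, had a log2 fold change of -0.22 ± 0.10 (95% interval -0.44 to 0.01; adjusted p = 0.209). Between the knockdown groups the desmosomal genes did not pass: the estimate was 0.00 ± 0.16 for Dsp (-0.34 to 0.35; adjusted p = 0.995), 0.00 ± 0.17 for Dsg2 (-0.39 to 0.38; adjusted p = 0.997), 0.05 ± 0.16 for Pkp2 (-0.32 to 0.41; adjusted p = 0.893) and 0.17 ± 0.09 for Jup (adjusted p = 0.283). Cdh2 had 0.37 ± 0.15 (adjusted p = 0.147) and Des -0.68 ± 0.34 (adjusted p = 0.266). The signs of the Dsp, Dsg2 and Pkp2 estimates changed under some other settings, and their intervals leave room for log2 differences of up to 0.41.

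Markers of cardiomyocytes rose in both knockdown groups, and 11 of the 12 passed in each. Their median log2 fold change was 1.42 with DNMT3a siRNA and 1.80 with DNMT3b siRNA. All 10 disc genes lay below that median in both comparisons, as did nearly all genes tested. With DNMT3a siRNA a log2 fold change of 1.36 (the desmosomal gene Dsc2) stood at percentile 98.7 of all genes tested. With DNMT3b siRNA one of 1.78 (the cardiomyocyte marker Tnnc1) stood at percentile 99.3. Across the 9 libraries the log2 CPM of Dsg2, Pkp2, Des, Dsp and Gjc1 had Pearson r of 0.95, 0.89, 0.88, 0.86 and 0.84 with the mean of the cardiomyocyte markers, Cdh2 had 0.49, Gja5 0.47, Gja1 0.22, Tmem65 -0.22 and Jup -0.69. These are descriptions without a p, because the libraries form 3 groups and share a scale. Epicardial markers summed to 1187 to 1676 CPM with DNMT3a siRNA, 1261 to 1815 CPM with DNMT3b siRNA and 1902 to 2307 CPM with negative siRNA. Of 7 tested, 3 passed downward with DNMT3a siRNA and 1 with DNMT3b siRNA by edgeR. DESeq2 called 3 lower in each comparison, and limma-voom called 3 and 1. Fibroblast markers passed downward in 3 of 10 with DNMT3a siRNA and 2 of 10 with DNMT3b siRNA. Smooth muscle and pericyte markers summed to 7951 to 9091, 8137 to 9690 and 5623 to 8260 CPM, and macrophage markers to 7.79 to 16.0, 18.4 to 44.3 and 18.1 to 50.8 CPM, with DNMT3a siRNA, DNMT3b siRNA and negative siRNA in that order. Of 9 macrophage markers, 3 passed downward with DNMT3a siRNA by edgeR (median log2 fold change -2.00), and all 9 had an unadjusted p under 0.05. DESeq2 called 5 lower there, and limma-voom called 2. By edgeR none of the 9 passed with DNMT3b siRNA (median -0.78), none had an unadjusted p under 0.05, and DESeq2 and limma-voom also called none. Of 9 smooth muscle and pericyte markers none passed by edgeR in either comparison with negative siRNA (3 with DNMT3a siRNA and 5 with DNMT3b siRNA had an unadjusted p under 0.05), while DESeq2 called 2 in each and limma-voom called 1 with DNMT3b siRNA. No counted marker of these 4 types, nor of cardiomyocytes, was at 0 in a library. The part of cell composition in the values of the 10 genes was not tested.

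By the same measure, the protein-coding transcripts most like each gene that passed were Faf1 (Pearson r 0.959 over 9 libraries) and Usp46 (0.957) for Gja1, Sdc4 (0.983) and Rasl10b (0.979) for Gja5, Uqcrh (0.992) and Atp5j2 (0.991) for Gjc1, and Scaper (0.973) and Fchsd1 (0.973) for Tmem65. The closest to Cdh2 was Sri (0.977), those for Dsp Cdc34b (0.989) and Gucd1 (0.957), and those for Dsg2 Pirt (0.988) and Csrp3 (0.986). They are the closest of 10821 candidate transcripts over 9 points.

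Other junction genes were counted from 5 lists of 73 genes, 53 of which passed the filter. With DNMT3a siRNA 18 of the 53 rose and 35 did not pass (median log2 fold change 0.22), and with DNMT3b siRNA 17 rose and 36 did not pass (median 0.19; 11 passed without DNMT3b siRNA 3). Of all genes tested, 4.87% rose with DNMT3a siRNA and 3.52% with DNMT3b siRNA, which is also the background of the counts by list below. The median is that of genes that passed the filter on low counts, beside 0.02 and 0.00 for all genes tested. Of the 5 lists, that of disc-associated genes had the highest share that passed, 8 of 13 upward in each comparison. Xirp1, an actin-binding Xin repeat protein gene with 75.0 ± 6.55 CPM with DNMT3a siRNA, 67.9 ± 11.2 CPM with DNMT3b siRNA and 22.4 ± 5.20 CPM with negative siRNA (SD, n = 3), rose by 1.74 ± 0.17 with DNMT3a siRNA and 1.60 ± 0.17 with DNMT3b siRNA on the log2 scale, Nrap, which anchors actin at the disc, by 1.66 ± 0.16 and 1.88 ± 0.16 in the same order, and Sorbs2, an adaptor of the actin cytoskeleton, by 1.14 ± 0.08 and 0.84 ± 0.08 (adjusted p between 4.22e-05 and 6.77e-04).

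Among the other desmosomal and plaque genes, 7 of 14 were tested and 3 rose in each comparison. Dsc2, the heart's desmocollin and partner of Dsg2, had 9.30 ± 0.177 CPM with DNMT3a siRNA, 9.94 ± 0.392 CPM with DNMT3b siRNA and 3.63 ± 0.114 CPM with negative siRNA (SD, n = 3). It rose with both pools (1.36 ± 0.11, adjusted p = 9.42e-05; 1.45 ± 0.11, adjusted p = 1.42e-04). Perp, a small desmosomal membrane protein gene, rose by 0.77 ± 0.20 (adjusted p = 0.0431) with DNMT3a siRNA and 0.91 ± 0.20 (adjusted p = 0.0313) with DNMT3b siRNA. Pkp4, a plakophilin of adherens junctions, rose with DNMT3a siRNA (0.56 ± 0.09; adjusted p = 0.00301), and Pkp1, the plakophilin of skin, rose with DNMT3b siRNA from a low level (1.02 ± 0.188 CPM, against 0.387 ± 0.135 CPM with negative siRNA; adjusted p = 0.0432).

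Of the adherens junction and area composita genes, 18 of 20 were tested, 4 rose with DNMT3a siRNA and 2 with DNMT3b siRNA. Lmo7, which binds afadin and actinin at adherens junctions, rose in both comparisons (1.00 ± 0.08, adjusted p = 7.17e-05, with DNMT3a siRNA; 0.93 ± 0.08, adjusted p = 2.01e-04, with DNMT3b siRNA), as did Ctnna3, the alpha-T-catenin that binds plakophilin 2 (0.86 ± 0.21, adjusted p = 0.0235; 1.30 ± 0.20, adjusted p = 0.00497). Afdn, encoding the scaffold afadin, rose by 0.36 ± 0.10 with DNMT3a siRNA (adjusted p = 0.0394). The core catenins and vinculin did not pass: Ctnnb1 averaged 607, 678 and 596 CPM, Ctnna1 542, 550 and 504 CPM and Vcl 845, 945 and 942 CPM with DNMT3a siRNA, DNMT3b siRNA and negative siRNA in that order.

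Of the other connexins, 6 of 17 were tested. Gja3, best known as a lens connexin, rose with both pools and had 2.52 ± 0.410 CPM with DNMT3a siRNA, 4.06 ± 0.517 CPM with DNMT3b siRNA and 1.51 ± 0.171 CPM with negative siRNA (0.73 ± 0.20, adjusted p = 0.0445; 1.42 ± 0.20, adjusted p = 0.00262). The arterial endothelial connexin Gja4 had 8.07 ± 4.00 CPM with DNMT3a siRNA, 14.8 ± 0.772 CPM with DNMT3b siRNA and 6.74 ± 2.62 CPM with negative siRNA and did not pass. The last list held 9 other genes of intermediate filaments and of proteins that bind them. Among these, Synm, whose product synemin copolymerises with desmin, rose by 0.90 ± 0.12 (adjusted p = 0.00141) with DNMT3a siRNA and 0.95 ± 0.12 (adjusted p = 0.00168) with DNMT3b siRNA. Krt18, a simple epithelial keratin gene, rose by 1.11 ± 0.28 (adjusted p = 0.0396) and 1.36 ± 0.28 (adjusted p = 0.0263); it has near-identical pseudogene copies, so its counts are uncertain. Cryab, the chaperone of desmin, rose with DNMT3b siRNA (0.35 ± 0.07; adjusted p = 0.0176).

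**Figure D5:**
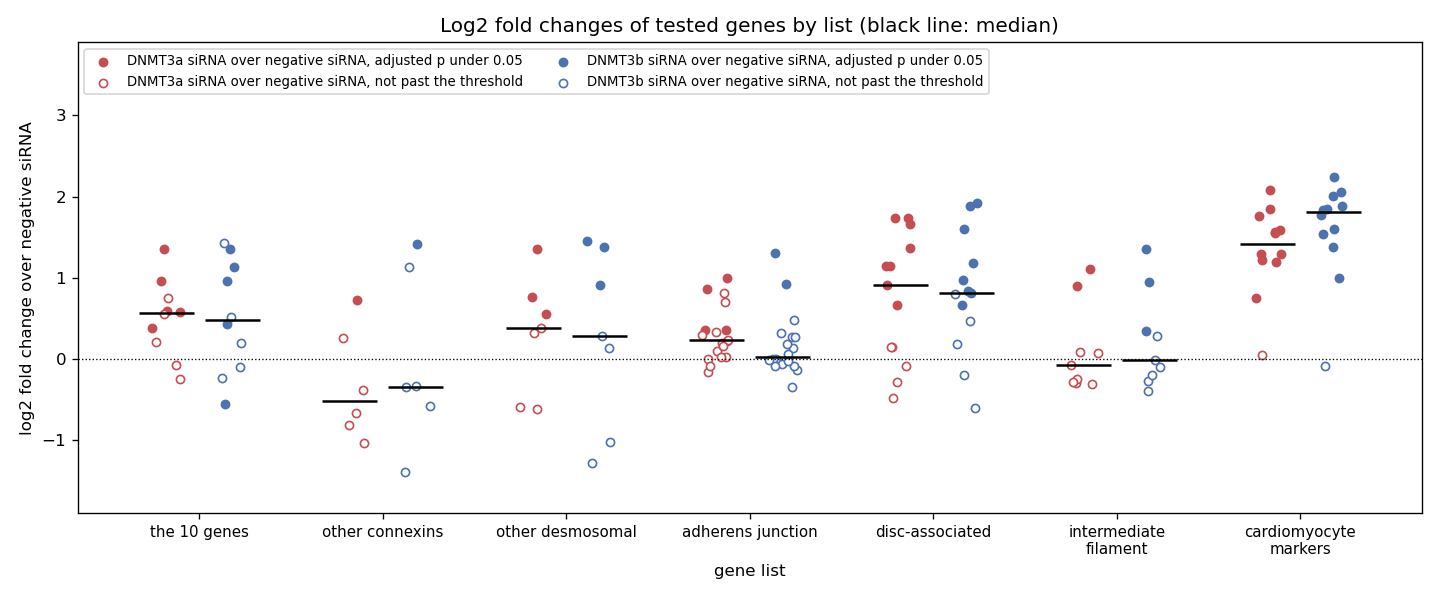
Log2 fold changes over negative siRNA of the tested genes of each list, for DNMT3a siRNA (red, left in each pair) and DNMT3b siRNA (blue, right); filled dots have an adjusted p under 0.05, and black lines are list medians. The disc-associated genes (medians 0.91 and 0.81) and the cardiomyocyte markers (1.42 and 1.80) lie above the 10 genes (0.57 and 0.47).

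Between the knockdown groups, 6 of the 53 other junction genes passed, a share near the 9.55% of all genes tested that passed in this comparison. Afdn (0.43 ± 0.10; adjusted p = 0.0221), Sorbs2 (0.30 ± 0.08; adjusted p = 0.0447), Ank2, the ankyrin that anchors ion transporters (0.75 ± 0.20; adjusted p = 0.0479), and Vim, the mesenchymal intermediate filament gene (0.36 ± 0.10; adjusted p = 0.0446), were higher with DNMT3a siRNA. Gja3 (-0.69 ± 0.19; adjusted p = 0.0482) and Cryab (-0.26 ± 0.07; adjusted p = 0.0445) were lower. These calls lie near the threshold. By edgeR's test none of the 53 passed without DNMT3a siRNA 1, DNMT3a siRNA 3, DNMT3b siRNA 2 or DNMT3b siRNA 3 (16, 18, 14 and 13 had an unadjusted p under 0.05), 2 passed without DNMT3b siRNA 1 and 3 without negative siRNA 1, while DESeq2 on all libraries gave 11.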

How the data were processed

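Poly(A) RNA was sequenced on an Illumina NextSeq500, per the labels. The authors deposited 1 table of whole-number read counts per library, and the submitters' processing notes name FastQC, TopHat2, HTSeq and the mm10/GRCm38 build, without versions. For the counting, strand setting and annotation are not given in the sources used. The 5 HTSeq summary lines, 49.2% to 56.2% of each table's total, were left out of library sizes. Symbols, coordinates and exon lengths were taken from GENCODE M21 (GRCm38), which matched 42548 of 43629 IDs, and promoters from RefSeq (GRCm38.p6). On the opposite strand, Gm10129, Gm15179 and Gm16090 share 5.17%, 5.86% and 3.99% of the exon bases of Dsp, Des and Dsg2 and had at most 0.210 CPM.

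Counts were filtered with filterByExpr (minimum count 10, minimum total 15), scaled by TMM and fitted on all 9 libraries by group in edgeR 4.0.16 (R 4.3.3), with two-sided robust quasi-likelihood tests on 6 residual degrees of freedom. P-values were Benjamini-Hochberg adjusted over 16561 genes, with a threshold of 0.05. The script was tested on counts simulated for independent libraries with a common spread, so that test does not bear on pairing between libraries. Likeness was Pearson's r of log2 CPM among protein-coding genes whose average log2 CPM reached 2. The text names all 10 genes, the targeted genes, up to 4 genes with the smallest adjusted p per list and comparison, and the 2 most like each gene that passed; Gja4, Ctnnb1, Ctnna1 and Vcl and the ratios were chosen after their values were seen. A few genes that this rule names are not reported here. The 10 genes and all lists were chosen with earlier results of these data known.

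Deviations from group means of same-numbered libraries correlated at 0.434, 0.513 and 0.459 between DNMT3a siRNA and negative siRNA. Each was above 0.1, the threshold of this check for pairing. For the other comparisons the correlations did not all pass 0.1. The reported tests were fitted by group alone and ignore such pairing, and the replicate block was an alternative. No pair of replicates agreed within sampling noise. Alternatives were DESeq2 size factors, library size alone, no filter, a 1 CPM filter, DESeq2 1.42.0, limma-voom (limma 3.58.1), only the compared groups, the replicate block, each library left out, and, added after seeing the data, all libraries numbered 2 left out.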

Additional observations from a re-analysis of the deposited data

Results flagged for a closer look

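Among the 10 genes, 3 responded differently to the 2 siRNA pools by a direct test of one knockdown group over the other, which uses the same fit for both and in which 9.55% of all genes tested passed. The log2 difference of DNMT3a siRNA over DNMT3b siRNA was 0.69 for Gja1 (adjusted p = 0.00309), 0.93 for Tmem65 (adjusted p = 2.09e-04) and -1.37 for Gja5 (adjusted p = 0.0100). In all 3 genes the 3 libraries of one knockdown group lay outside the range of the other. Since this test picked the genes, that adds no support. The libraries of Gjc1, Cdh2 and Jup, which did not pass, were also separate. The share of all genes tested with separate libraries was not computed, so this separation is not read as a difference.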

How the results depend on the processing

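Over 18 alternatives, the calls of Gja1, Tmem65, Dsg2 and Dsp with DNMT3a siRNA, of Tmem65, Dsg2 and Dsp with DNMT3b siRNA, and of Gja1, Gja5 and Tmem65 between the knockdown groups held, and no call turned direction. The number of the 10 genes that passed ran from 4 to 6 with DNMT3a siRNA (5 as reported) and, leaving out 1 library at a time, from 3 to 8 with DNMT3b siRNA (5) and from 3 to 3 between the knockdown groups (3). Leaving out 1 library, all genes that passed ranged from 868 to 1839 (1671) with DNMT3a siRNA, from 287 to 1781 (934) with DNMT3b siRNA and from 524 to 1962 (1582) between the knockdown groups, and other junction genes from 12 to 18 (18), 11 to 19 (17) and 0 to 6 (6). The lowest counts of all genes came without DNMT3a siRNA 1, DNMT3b siRNA 3 and DNMT3b siRNA 2. Fitting only DNMT3a siRNA and negative siRNA, which leaves fewer libraries, gave 946 genes and the Cdh2 call was lost. DESeq2 gave 1715 genes and 26 other junction genes with DNMT3b siRNA and 11 other junction genes between the knockdown groups. With all libraries numbered 2 left out, chosen after seeing the data, 3 other junction genes passed between the knockdown groups, Pkp2 passed in both comparisons (adjusted p = 0.00593 and 0.00219), Des passed in all 3 (0.0111, 4.84e-04 and 0.00913), and Cdh2 with DNMT3a siRNA (0.190) and Gja5 with DNMT3b siRNA (0.0665) did not.

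The replicate block changed no call of the 10 genes with DNMT3a siRNA other than that of Pkp2. In the other comparisons too the labels give only a shared number, so whether the libraries were paired is not known. Same-numbered deviations correlated at 0.212, 0.101 and 0.0334 for DNMT3b siRNA with negative siRNA. They correlated at 0.161, 0.0776 and 0.0414 for DNMT3a siRNA with DNMT3b siRNA. In these comparisons not every library correlated best with its own number. There the block gave 1801 genes with DNMT3b siRNA, with Pkp2 (adjusted p = 0.0223) and Des (0.00687) added, and 2513 genes and 12 other junction genes between the knockdown groups, with Cdh2 added (0.0387).

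Between the knockdown groups, estimates near 0 changed sign. Dsp had -0.01 with DESeq2 size factors, the 1 CPM filter, DESeq2 or the replicate block, -0.02 with limma-voom, and -0.20 to 0.13 over all alternatives (-0.20 without DNMT3a siRNA 1, -0.07 without DNMT3b siRNA 2). Dsg2 had 0.03 with library size alone, 0.01 with no filter and -0.21 to 0.12 over all alternatives, and -0.11 to 0.12 without 1 DNMT3a siRNA library, with 0.00 without any 1 negative siRNA library and 0.07 without DNMT3b siRNA 3. Pkp2 had -0.12 to 0.14 without 1 library (-0.12 without DNMT3a siRNA 2) and -0.16 with the libraries numbered 2 left out. The causes were not tested. At the observed depth Gja5, with 21 to 82 counts per library, is the least precise of the connexins.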

Other observations

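The sort marker Vcam1 had 217, 212 and 258 CPM with DNMT3a siRNA, 307, 275 and 268 CPM with DNMT3b siRNA, and 276, 281 and 361 CPM with negative siRNA. With DNMT3a siRNA it had a log2 fold change of -0.42 ± 0.12 (adjusted p = 0.0510), and with DNMT3b siRNA one of -0.11 (adjusted p = 0.632). The HTSeq summary line for alignments that were not unique was taken as a share of each library's total, summary lines included. This share, which is not one of reads, was 36.6% to 40.1% in the DNMT3a siRNA libraries. It was 41.5% to 42.5% in the DNMT3b siRNA libraries and 41.3% to 42.5% in the negative siRNA libraries. The part of either in the values of the 10 genes was not tested.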
